A study of Mus musculus with 2 samples.

Results

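The natriuretic peptide system was followed through 6 genes, the hormones Nppa, Nppb and Nppc and the receptors Npr1, Npr2 and Npr3, in single cell RNA-seq of mouse hearts at postnatal day 1 (P1) and postnatal day 7 (P7). The genes were taken by symbol, 6 of the 31053 in the annotation used by the authors, and all 6 are reported whatever their values. The set was chosen with earlier results of these data known. Each age was represented by 1 library of sorted live cells, made from 3 pooled hearts of a single litter, and no genetic change or treatment is given in the labels for either library. Digestion with collagenase lasted 20 min at P1 and 45 min at P7. With 1 library at each age there was no replicate and no test between ages was possible, so that age, litter and digestion time cannot be told apart. The intervals given are exact 95% intervals that cover counting error only.

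Natriuretic peptides are small ring-shaped hormones that relax vessels, promote salt excretion and restrain growth of heart muscle. Nppa encodes atrial natriuretic peptide and Nppb brain natriuretic peptide, both made by heart muscle cells, and Nppc encodes C-type natriuretic peptide, which is known as a local signal of endothelial cells and of growing bone. Npr1 and Npr2 encode receptors whose intracellular part makes cyclic GMP, the first for the products of Nppa and Nppb and the second for that of Nppc, whereas Npr3 encodes the clearance receptor, which takes all 3 hormones out of the circulation and has no cyclase.

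What makes the hormones a family is a ring of 17 residues closed by a disulphide bond between its first and last cysteine. The DNA that codes for it in Nppb and Nppc is shown first. It was read from the only coding transcript of each gene in GENCODE M21 (GRCm38), 5′ to 3′ on the coding strand, and capitals mark the bases that both genes share.
Nppb: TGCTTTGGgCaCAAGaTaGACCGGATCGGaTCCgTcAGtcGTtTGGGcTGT
Nppc: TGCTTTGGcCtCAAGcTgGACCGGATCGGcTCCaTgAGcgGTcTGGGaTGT

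The ring of Nppb lies at chr4:147986464-147986514 on the plus strand and that of Nppc at chr1:86669667-86669717 on the minus strand. Each lies whole within exon 2 of the 3 exons of its transcript. In Nppb the ring is codons 99 to 115 of 121, so a short tail follows it. In Nppc it is codons 110 to 126 of 126, and the protein ends with the ring. The rings of the pair had the same base at 40 of 51 positions (78.4%).

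Nppa (chr4:148000722-148002079) and Nppb (chr4:147985788-147987205) are neighbours on the plus strand, with 13516 bases between them. Nppc lies at chr1:86666291-86670571 on the minus strand, Npr1 at chr3:90450591-90465866 on the minus strand, Npr2 at chr4:43631935-43651244 on the plus strand and Npr3 at chr15:11839896-11907287 on the minus strand. The 3 receptor genes overlap other annotated genes, Npr1 with Gm16048, Npr2 with Gm12473 and Npr3 with Gm5144. How reads in such overlaps were assigned is not given in the sources used here.

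The promoters of the neighbouring hormone genes were searched for letters that cardiac transcription factors are known to bind, since the cells with Nppa could be compared with the cells that had those factors. The windows cover 250 bases before to 50 after the RefSeq start on GRCm38, and all 6 genes had one. The letters searched on both strands were TGATAA or AGATAA (bound by GATA factors), TNAAGTG (bound by Nkx2-5), CATTCC (the M-CAT box) and TATAAA. Capitals mark the matches in the 3 windows shown, the M-CAT letters reading on the other strand, and none of the matches overlapped another.
Nppa, Nkx2-5 letters, chr4:148000472-148000497: tcacaccttTGAAGTGggggcctctt
Nppa, GATA letters, chr4:148000589-148000616: ctttgccgaacTGATAActttaaaaggg
Nppb, M-CAT and GATA letters, chr4:147985789-147985816: ccggcaGGAATGcagcTGATAAatcaga

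The match in the first Nppa window began 241 bases before the RefSeq start and that in the second 122 bases before it. The Nppb window lies before the RefSeq start but within the gene as GENCODE M21 draws it, and a further GATA match followed it. The GATA letters were present in 18.6% of all 32851 promoter windows of this length, the Nkx2-5 letters in 11.5%, the M-CAT letters in 14.7% and TATAAA in 13.6%. TATAAA was found before all 3 hormone genes. None of the 4 was found before Npr1, Npr2 or Npr3. These are matches of letters and not measured sites.

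The P1 file held 7836 barcodes and 63585504 transcript counts (UMIs, the unique molecular identifiers by which copies of 1 captured molecule are counted as 1), and the P7 file 9077 barcodes and 98346195 UMIs. Barcodes with 200 to 8000 genes and at most 20% mitochondrial UMIs were kept, 4991 at P1 and 8511 at P7, with a median of 10875 and 10104 UMIs. Cells were assigned to 8 classes by genes other than the 6. These were endocardium (Cdh5 with Cytl1 or Tmem108), other endothelium (Cdh5 alone), fibroblasts (Pdgfra), smooth muscle (Myh11), pericytes (Kcnj8), myocytes (Tnnt2), leukocytes (Ptprc) and epicardium (Upk3b). Of 48 values of independent markers, 46 were highest in the class they mark, the exceptions being Gata4 of the endocardium at both ages. This count ignores intervals, and some margins were narrow. Nfatc1 at P7 had 45.7 CPM (38.0 to 54.6) in endocardium and 40.7 (34.4 to 47.7) in leukocytes. Pecam1 at P1 had 614 CPM (601 to 627) in other endothelium and 593 (572 to 615) in endocardium. The pericyte class also carried the fibroblast genes Dcn and Col1a1, with 1858 and 1643 CPM at P1. P1 myocytes had 769 and 1068 CPM of the same genes. They also had 2550 CPM of the smooth muscle gene Acta2, the most outside smooth muscle. Endocardium numbered 331 cells at P1 and 200 at P7, but myocytes only 108 and 18, so values in myocytes rest on few cells. Cells left without a class (28.3% at P1 and 20.9% at P7) and those meeting several gates (4.49% and 4.42%) are counted only in the totals.

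Some features of the whole suspension moved with age and touch the values below. Xist, transcribed from the inactive X chromosome of females, had 992 CPM in other endothelium at P1 and 0.117 at P7, so the sex of the hearts cannot be told apart from age. The lung mesenchymal and endothelial factor Foxf1 had 52.5 CPM in other endothelium at P1 and 0.312 at P7. Values that changed without cells carrying Foxf1, Hoxa5, Tbx4 or Sftpc, genes typical of lung, are given both ways. Barcodes shared by both libraries among the kept cells numbered 13. Levels are UMIs per 1000000 UMIs of the same cells (CPM) and are compared within a gene and not between genes.

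**Figure D1:**
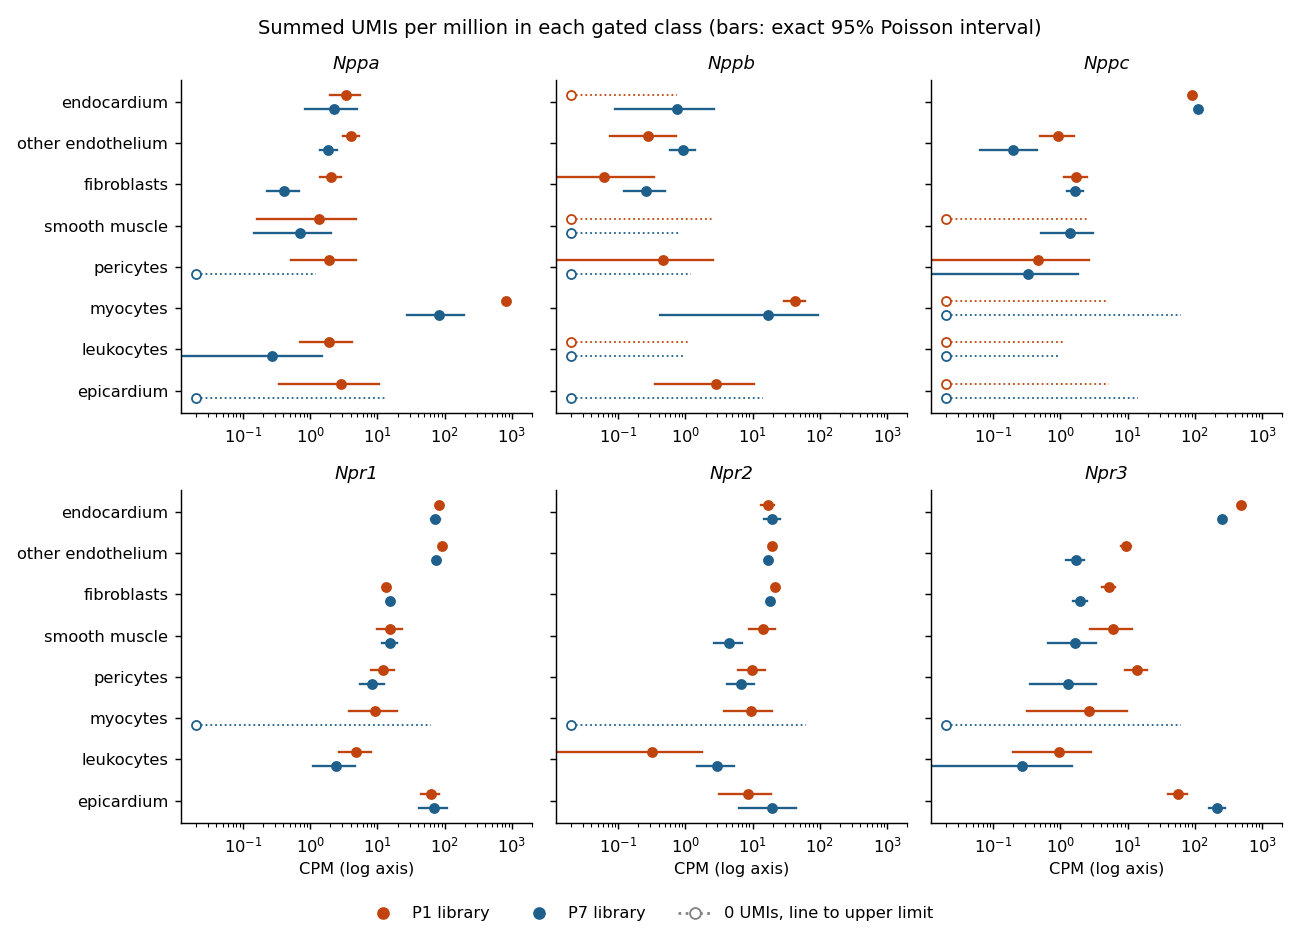
CPM of each gene (log axis) in 8 cell classes of the P1 library (orange) and the P7 library (blue), with exact 95% Poisson intervals; open circles mark classes with 0 UMIs and dotted lines their upper limit. Nppa and Nppb were highest in myocytes, Nppc and Npr3 in endocardium, and Npr1 in endocardium, other endothelium and epicardium, while Npr2 was spread over most classes. The Nppb level of P7 myocytes rests on 1 UMI, and its interval overlapped that of other endothelium. At P7 the Npr3 intervals of endocardium and epicardium also overlapped.

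Nppa had its highest level in myocytes at both ages. At P1 the 108 myocytes held 608 of the 765 Nppa UMIs of all kept cells (79.5%), a level of 811 CPM (748 to 879), and the next class, other endothelium, had 4.04 CPM (3.06 to 5.23). At P7 the 18 myocytes had 5 Nppa UMIs, all in 1 cell, which is 83.5 CPM (27.1 to 195). The intervals of the 2 ages did not overlap, but the P7 value rests on a single cell. The P1 level also moved with the cells taken, to 412 CPM when cells of several gates were kept in the class and to 1535 CPM with no mitochondrial limit. Over all kept cells Nppa had 13 CPM at P1 and 1.07 at P7, with a log2 ratio of P1 over P7 of 3.60 (3.30 to 3.91). Of the 104 Nppa UMIs at P7, myocytes held 5 (4.81%) and other endothelium 48 (46.2%). The share of all UMIs that came from gated myocytes was 1.27% at P1 and 0.0614% at P7, so in this total fewer myocytes and less Nppa per myocyte cannot be told apart.

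In most P1 myocytes no Nppa UMI was detected, at a median depth of 5201 UMIs, so low levels could be missed. Nppa was detected in 28 of 108 cells (25.9%, exact binomial interval 18.0 to 35.2). Of these, 2 cells with 283 and 97 UMIs held 62.5% of the Nppa UMIs of the class. Both had more Myl7, the atrial light chain, than Myl2, the ventricular one. The first had 860 Myl7 UMIs and no Myl2, the second 120 Myl7 UMIs and no Myl2. Only 5 myocytes were Myl7-rich in this sense, all at P1, and they ranged from 0 to 283 Nppa UMIs, 2 of them having none despite 372 and 464 Myl7 UMIs. Together they had 7092 CPM (6398 to 7841), against 426 CPM (372 to 485) in the 87 Myl2-rich cells. In the latter Nppa was detected in 25 cells (28.7%), at a median depth of 3825 UMIs. The remaining P1 myocytes were neither Myl7-rich nor Myl2-rich. Of the 8432 UMIs of the myocyte gene Actc1 in the class, Myl7-rich cells held 1317 and Myl2-rich cells 7111. The remaining cells thus had almost no Actc1, and they had no Nppa. Whether they were myocytes was not tested, and the P1 values of the whole class include them. All 18 P7 myocytes were Myl2-rich. Nppa was therefore uneven within both kinds of kept myocyte, with up to 69 UMIs in a single kept Myl2-rich cell. A P1 barcode with 767 Nppa, 605 Myl2 and 20 Myl7 UMIs was left out, as its 22.6% mitochondrial UMIs passed the 20% limit. The difference between the kinds was thus measured without it and depends on that limit.

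A few Nppa UMIs were found in every class at P1, from 1.35 CPM in smooth muscle to 4.04 CPM in other endothelium. Leukocytes, which should lack the hormone, showed it in 1.86% of cells (0.685 to 4) at a median depth of 7693 UMIs, and other endothelium in 3.29% (2.38 to 4.42) at 10009 UMIs. At P7 the shares were 0.218% (0.00552 to 1.21) and 1.51% (1.10 to 2.02), and the intervals overlapped at both ages. The structural myocyte gene Tnnt2 was found alongside it. Per 100 Tnnt2 UMIs, Nppa had 6.88 UMIs in P1 myocytes, 5.73 in other endothelium (4.31 to 7.48), 7.42 in endocardium (4.25 to 12.2), 8.70 in leukocytes (3.08 to 19.9) and 6.75 in barcodes removed for having fewer than 200 genes (4.93 to 9.05). In fibroblasts the ratio was 3.99 (2.72 to 5.64), below the interval of all myocytes (6.33 to 7.47). The myocyte value includes 79.9 in the 5 Myl7-rich cells and 2.81 (2.45 to 3.21) in the 87 Myl2-rich cells. In the Myl7-rich cells 2 cells held 99.7% of the Nppa UMIs. The fibroblast interval overlapped that of Myl2-rich cells, and those of other endothelium and endocardium lay above it. At P1 the intervals of all myocytes, other endothelium, endocardium, leukocytes and fibroblasts overlapped that of the barcodes with few genes. Those barcodes held a median of 1128 UMIs. At P7 other endothelium had 1.65 (1.21 to 2.19), leukocytes 2.22 (0.0551 to 13) and the barcodes with fewer than 200 genes 23.5 (5.76 to 72.1), the last from 4 Nppa UMIs, so that other endothelium lay below them there. P7 myocytes had 0.728 (0.236 to 1.71), from 5 Nppa UMIs in 1 cell. Free RNA and expression outside myocytes were not told apart by these values. Smooth muscle, which also transcribes some Tnnt2 of its own, had a ratio of 0.543 (0.0656 to 1.98).

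**Figure D2:**
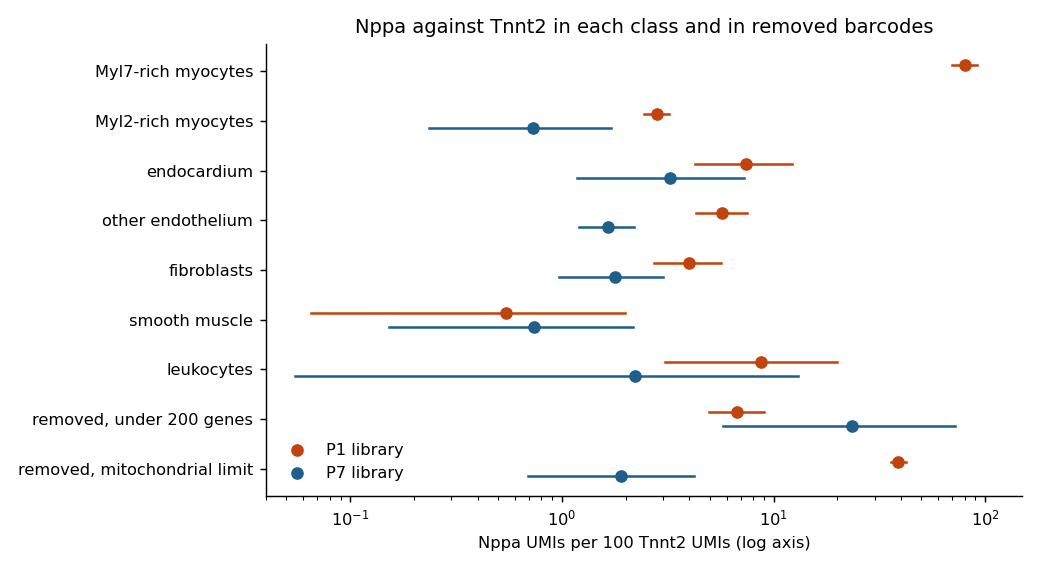
Nppa UMIs per 100 Tnnt2 UMIs (log axis) in cell classes and in removed barcodes of the P1 library (orange) and the P7 library (blue), with 95% intervals. At P1 endocardium, other endothelium, leukocytes and barcodes under 200 genes lay between 5.73 and 8.70, Myl2-rich myocytes at 2.81 and Myl7-rich myocytes at 79.9.

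Nppb, which is known to rise when heart muscle is stretched, was sparse. It had 49 UMIs in all P1 cells and 42 in all P7 cells. At P1 myocytes held 32 of them in 9 cells, 17 of these in the cell with the most Nppa, and the level was 42.7 CPM (29.2 to 60.3). At P7 a single UMI was found in 18 myocytes, and the 24 UMIs in other endothelium were spread over 24 of 2977 cells. The level in other endothelium was 0.283 CPM at P1 against 0.937 at P7, with a log2 ratio of -1.59 (-3.71 to -0.18). Per 100 Tnnt2 UMIs these were 0.402 (0.109 to 1.03) and 0.825 (0.528 to 1.23), and the intervals overlapped. Myocytes had 0.362 (0.248 to 0.512) at P1 and 0.146 (0.00368 to 0.814) at P7, so the ratio in other endothelium was not lower than in myocytes. Free RNA and transcription of Nppb outside myocytes were not told apart.

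Nppc was found in few cells of the endocardial class. Endocardium had 89.7 CPM at P1 (81.6 to 98.5) and 112 at P7 (99.7 to 125), and none of the other 7 classes passed 1.71 CPM at either age. Cells that met no gate had 5.43 and 3.58 CPM. Endocardial cells gave 81.4% of all Nppc UMIs at P1 and 68.1% at P7, from 8.44% and 2.74% of all UMIs. Over other endothelium the log2 ratio was 6.55 at P1 (5.82 to 7.53) and 9.03 at P7 (7.93 to 10.80). Myocytes, leukocytes and epicardium had no Nppc UMI at either age, which allows up to 0.966 and 0.802 CPM in leukocytes but up to 50.1 CPM in the few P7 myocytes.

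Those sums came from 8 of 331 endocardial cells at P1 (2.42%, 1.05 to 4.71) and 13 of 200 at P7 (6.50%, 3.51 to 10.9). At P1 a single cell held 319 of 447 UMIs (71.4%) and at P7 2 cells with 145 and 105 UMIs held 83.6% of 299. The next cells had 47 and 35 UMIs at P1 and 27 at P7. The log2 ratio of P1 over P7 in endocardium was -0.32 (-0.53 to -0.10), and it was -1.17 without the highest cell of each library and 0.56 with a gate of 1 UMI. Nppc levels between ages are therefore given without a direction. Counting intervals on the sums do not include the spread from cell to cell, which here is far larger.

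Cells with at least 10 Nppc UMIs numbered 6 at P1 and 4 at P7, and they held 88.3% and 69.5% of the Nppc UMIs of the libraries. Of these cells 5 and 3 were in the endocardial class, and the others met no gate and had no Cdh5 UMI. Their median depth was 20371 and 18864 UMIs, above the class medians of 14084 and 11723. None had Ptprc, and 1 at P7 had a UMI of Pdgfra.

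The cells with Nppc also shared another gene. By the correlation of log2 CPM over 15 class and library points the genes most like Nppc were A2m (r = 0.963), Duox2 (0.957) and the Wnt ligand Wnt9b (0.954), the closest of 13994 genes. These points share libraries and depth, and r is a description. Nppc had 89.7 and 112 CPM in endocardium and at most 1.71 CPM in the other classes. Its r therefore rests largely on the endocardial points, where few cells held most of the UMIs. Wnt9b was the one often found in the same cells. Wnt9b was detected in 6 of the 8 endocardial cells with Nppc at P1 (75%, 34.9 to 96.8) and in 6 of 13 at P7 (46.2%, 19.2 to 74.9), against 14 of 323 (4.33%, 2.39 to 7.17) and 6 of 187 (3.21%, 1.19 to 6.85) endocardial cells without it. Its level was 472 and 285 CPM in the first group and 4.55 and 3.72 CPM in the second. A2m was found in 0 of 8 and 1 of 13 cells with Nppc and in 21.7% and 13.9% of those without, and Duox2 in 1 of 8 and 0 of 13. The intervals for Wnt9b did not overlap at either age. Smoc1, the independent endocardial marker, was found in 1 of the 8 cells with Nppc at P1 against 45.5% of those without, and in 3 of 13 against 26.7% at P7. The cells with Nppc were deeper, with a median of 17150 and 15414 UMIs against 13940 and 11311, and the part of depth in these shares was not tested.

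**Figure D3:**
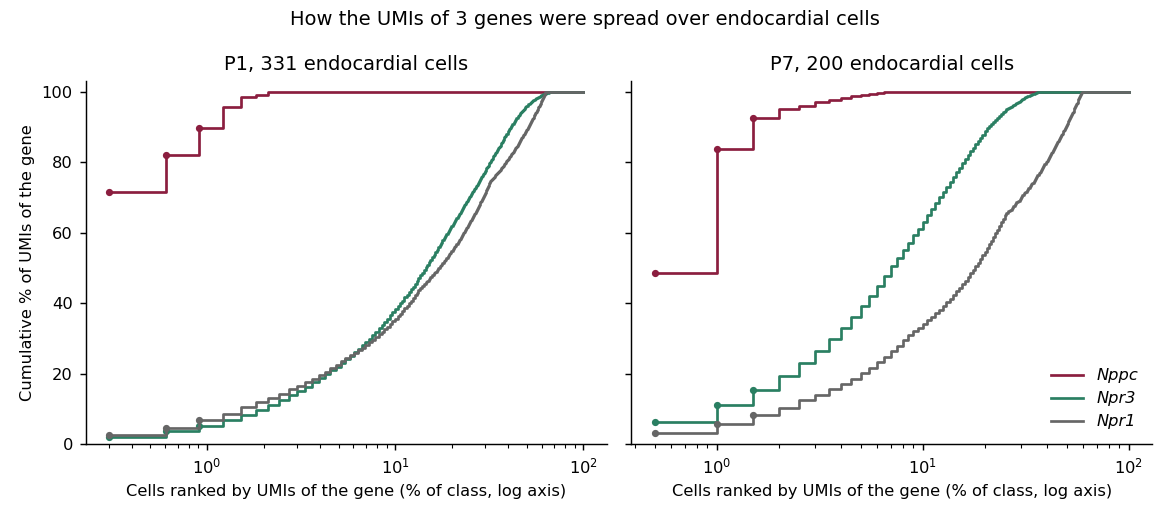
Cumulative share of the UMIs of Nppc, Npr3 and Npr1 over endocardial cells ranked by UMIs of that gene (log axis), for 331 cells at P1 and 200 at P7; points mark the first 3 cells. The highest cell held 71.4% of Nppc at P1 and 48.5% at P7, against 2.06% and 6.17% of Npr3.

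Npr3 was highest in endocardium at both ages. It had 488 CPM at P1 (469 to 508) and 255 at P7 (236 to 275), found in 67.4% (62 to 72.4) and 36.5% (29.8 to 43.6) of endocardial cells. After thinning every cell to 2000 UMIs the shares were 47.0% and 21.7%. Leukocytes showed it in 0.929% and 0.218% of cells, at median depths of 7693 and 6363 UMIs against 14084 and 11723 in endocardium. Epicardium came next in order at both ages, below endocardium at P1 and with an overlapping interval at P7. The share of epicardial cells with Npr3 at P7 was 57.1% (34.0 to 78.2), beside 36.5% in endocardium. The 9.42 and 1.68 CPM of other endothelium put endocardium above it by 5.69 (5.44 to 5.96) and 7.23 (6.80 to 7.73) on the log2 scale. Of all genes with at least 20 UMIs, 11.2% at P1 and 11.0% at P7 were more than 2-fold higher in endocardium than in other endothelium. Of the 6 genes, Nppc and Npr3 were. Npr1 and Npr2 lay between -0.21 and 0.20 in both libraries.

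Unlike Nppc, Npr3 was spread over many cells. The highest endocardial cell held 2.06% of its UMIs at P1 and 6.17% at P7, and the median cell with Npr3 had 9 and 6 UMIs. Smoc1, an endocardial marker that was not used for the gate, moved with it. Of cells with Npr3, 60.1% at P1 and 61.6% at P7 had Smoc1, against 13% and 6.30% of endocardial cells without Npr3, at median depths of 14460 and 12448 against 13454 and 11311 UMIs. Npr1 was found in 60.1% of cells with Npr3 and in 69.4% of cells without it at P1, and in 57.5% and 59.8% at P7. The clearance receptor and the cyclase receptor Npr1 were thus detected in the same endocardial cells, with overlapping intervals between cells with and without Npr3.

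The endocardial gate takes cells with either of 2 genes, and its parts differed. Cells with both Cytl1 and Tmem108 had 842 CPM of Npr3 at P1 (797 to 888) and 744 at P7 (677 to 815). Cells with Tmem108 alone had 351 CPM (331 to 372) and 121 CPM (105 to 138). Cells with Cytl1 alone had 28 CPM (11.3 to 57.7) and 0 of 18 cells with a UMI at P7, which allows a level of up to 15.6 CPM. Smoc1 had 158 CPM at P1 and 139 at P7 in cells with both genes, against 42.2 and 26.8 CPM in cells with Tmem108 alone. In cells with Cytl1 alone Smoc1 had 88.1 and 15.6 CPM, so at P1 it did not follow the order of Npr3, and these cells carried the lung genes Foxf1 and Hoxa5 at 72.1 and 64 CPM at P1. Of the fibroblast genes, Dcn had 1587 and 2194 CPM in cells with both genes against 232 and 857 CPM with Tmem108 alone, whereas Col1a1 went the other way, with 51.4 and 63.6 CPM against 101 and 408 CPM. Their part in the Npr3 values was not tested.

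**Figure D4:**
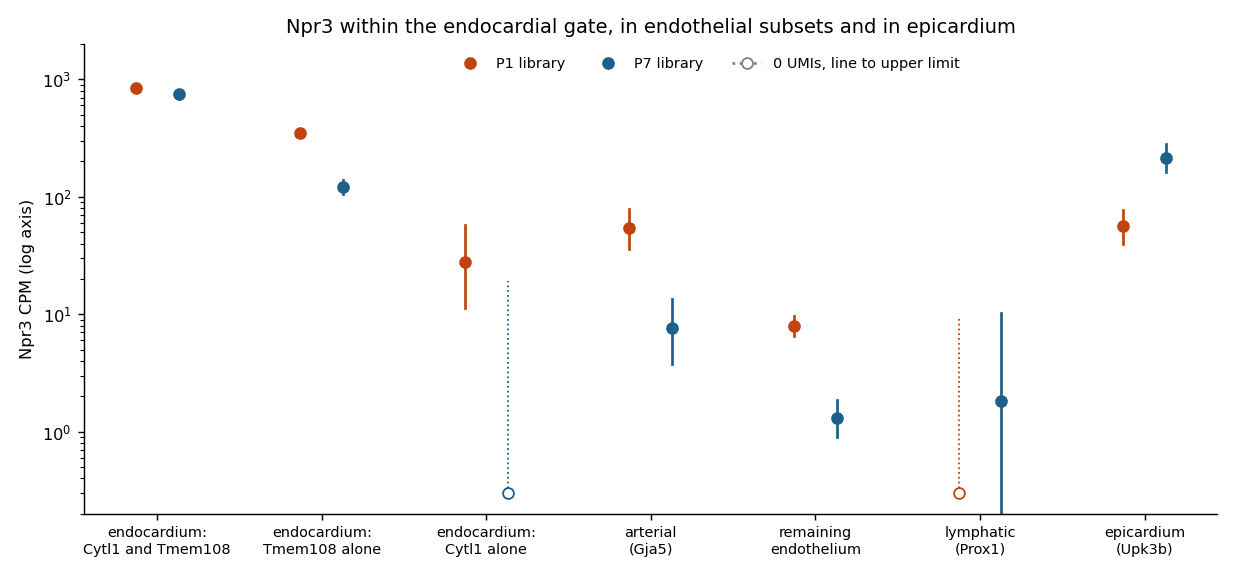
Npr3 CPM (log axis) in parts of the endocardial class, in endothelial subsets and in epicardium of the P1 library (orange) and the P7 library (blue), with exact 95% Poisson intervals; open circles mark 0 UMIs. Cells with both endocardial genes had 842 and 744 CPM, arterial cells 54.0 and 7.56 CPM, and epicardium 56.1 and 215 CPM.

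The age ratio of Npr3 depended on these parts. In the whole endocardial class the log2 ratio of P1 over P7 was 0.93 (0.81 to 1.06). It was 0.18 (0.02 to 0.34) in cells with both genes and 1.54 (1.33 to 1.75) in cells with Tmem108 alone. Cells with both genes made up 32.3% of the class at P1 and 23.5% at P7. Smoc1 in the whole class had a ratio of 0.64 (0.36 to 0.93), whereas Pecam1, a marker of all endothelium, had -0.04 (-0.13 to 0.05). Purity of the class and level per cell cannot be told apart in the value for the whole class. Over all kept cells Npr3 had 52.7 and 10.3 CPM, a log2 ratio of 2.36 (2.26 to 2.47), while the endocardial class gave 8.44% and 2.74% of the UMIs.

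Outside the endocardium the age ratio of Npr3 varied. Among other endothelial cells the 45 and 155 arterial cells (with Gja5, the connexin of arteries) had 54.0 CPM at P1 (35.9 to 78.0) and 7.56 at P7 (3.77 to 13.5), and lymphatic cells (with Prox1) a UMI in 0 of 32 cells, which allows a level of up to 7.44 CPM, and in 1 of 45. The log2 ratio was 2.48 (1.98 to 3.02) in other endothelium, 1.42 (0.94 to 1.90) in fibroblasts and 3.25 in pericytes, where 29 and 4 UMIs were counted. Without lung-like cells these were 1.82, 1.09 and 2.70. With cells of several gates kept in each class, the ratio in pericytes was 0.94.

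In epicardium, the outer layer of the heart, Npr3 was higher at P7. The 46 P1 cells had 39 UMIs (56.1 CPM, 39.9 to 76.7) and the 21 P7 cells 56 UMIs (215 CPM, 162 to 279). It was detected in 11 of 46 cells (23.9%, 12.6 to 38.8) and 12 of 21 (57.1%, 34.0 to 78.2). The log2 ratio was -1.93 (-2.56 to -1.32), opposite in sign to the other classes with enough UMIs, and -1.03 (-1.74 to -0.37) without lung-like cells. Hoxa5, one of the lung genes, had 144 CPM in this class at P1 and 26.8 at P7. Dcn and Col1a1 were high in the class at both ages, with 5944 and 4527 CPM at P1 and 4494 and 3094 CPM at P7.

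Across the classes Npr3 was most like Prr15 (r = 0.941), Wnt2 (0.914) and Plek2 (0.908) over the same 15 points. Prr15, highest in endocardium at P1 with 169 CPM, was present in 77.6% of endocardial cells with Npr3 and 27.8% of those without at P1, and in 65.8% and 10.2% at P7. Wnt2 and Plek2 were highest in epicardium at P7.

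Npr1, the receptor for the products of Nppa and Nppb, was a gene of the whole endothelial lineage and of the epicardium. Other endothelium had 92.6 CPM at P1 (87.6 to 97.7) and 73.4 at P7 (70.1 to 76.7). Endocardium had 81.3 (73.6 to 89.6) and 72.7 (62.8 to 83.7), and epicardium 61.9 (44.8 to 83.4) and 69.0 (40.9 to 109). Neighbours in this order had overlapping intervals at both ages. Lymphatic cells, with 99.2 and 84.8 CPM, and arterial cells, with 88.7 and 64.6 CPM, lay in the same range, and the intervals overlapped. Smooth muscle had 15.5 and 15.2 CPM, fibroblasts 13.6 and 15.6 CPM, and pericytes 12.2 and 8.44 CPM. Leukocytes were lower, with 4.83 CPM at P1 (3.72% of cells) and 2.41 at P7 (1.96%).

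Npr1 was found in 57.5% of other endothelial cells at P1 and 42.7% at P7, where the median depth was 10009 and 7692 UMIs. Once thinned to 2000 UMIs the shares were 15.5% and 14.6%. The log2 ratio was 0.34 (0.23 to 0.44) in other endothelium and 0.16 (-0.09 to 0.42) in endocardium, and in thinned cells the former was 0.08 (-0.17 to 0.32). Efna1 (r = 0.950), an endothelial ephrin ligand, was the gene most like it, followed by Prrg3 (0.949) and Bend7 (0.946).

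Npr2, the receptor for the product of Nppc, was not particular to one class. At P1 its levels ran from 8.64 CPM in epicardium to 21.5 CPM in fibroblasts (19.3 to 23.9), with leukocytes apart at 0.322 CPM. Every neighbouring pair in that order had overlapping intervals except epicardium and leukocytes. At P7 endocardium (19.5 CPM), epicardium (19.2), fibroblasts (18.0) and other endothelium (17.1) formed an upper group, and pericytes (6.82), smooth muscle (4.45) and leukocytes (2.94) a lower one. The log2 ratio was 0.26 (0.06 to 0.45) in fibroblasts and 0.20 (-0.03 to 0.42) in other endothelium. In smooth muscle Npr2 had 14.1 CPM at P1 (8.75 to 21.6) and 4.45 at P7 (2.68 to 6.95), from 21 and 19 UMIs. The log2 ratio was 1.66 (0.70 to 2.64) there, and -0.92 (-6.88 to 1.42) in thinned cells, where few UMIs remained. No myocyte at P7 had a UMI of any of the 3 receptors, which in 18 cells allows a level of up to 50.1 CPM, above that of Npr2 in every class. The genes most like it were Prickle1 (r = 0.925), Prnp (0.924) and Ube2r2 (0.922).

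Set side by side, ligand and receptors did not share a class in the same way. Endocardium had Nppc in 2.42% and 6.50% of cells, Npr3 in 67.4% and 36.5%, Npr1 in 63.1% and 59.0% and Npr2 in 19.3% and 21.5%. Of the endocardial cells with Nppc, 1 of 8 at P1 and 6 of 13 at P7 also had Npr3, against 68.7% and 35.8% of the cells without Nppc. Npr2 was found in 2 of 8 and 5 of 13 of them, against 19.2% and 20.3% of the others. After thinning to 2000 UMIs, 6 and 7 cells still had Nppc, and 0 of them had Npr3 at either age. These counts are small.

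**Figure D5:**
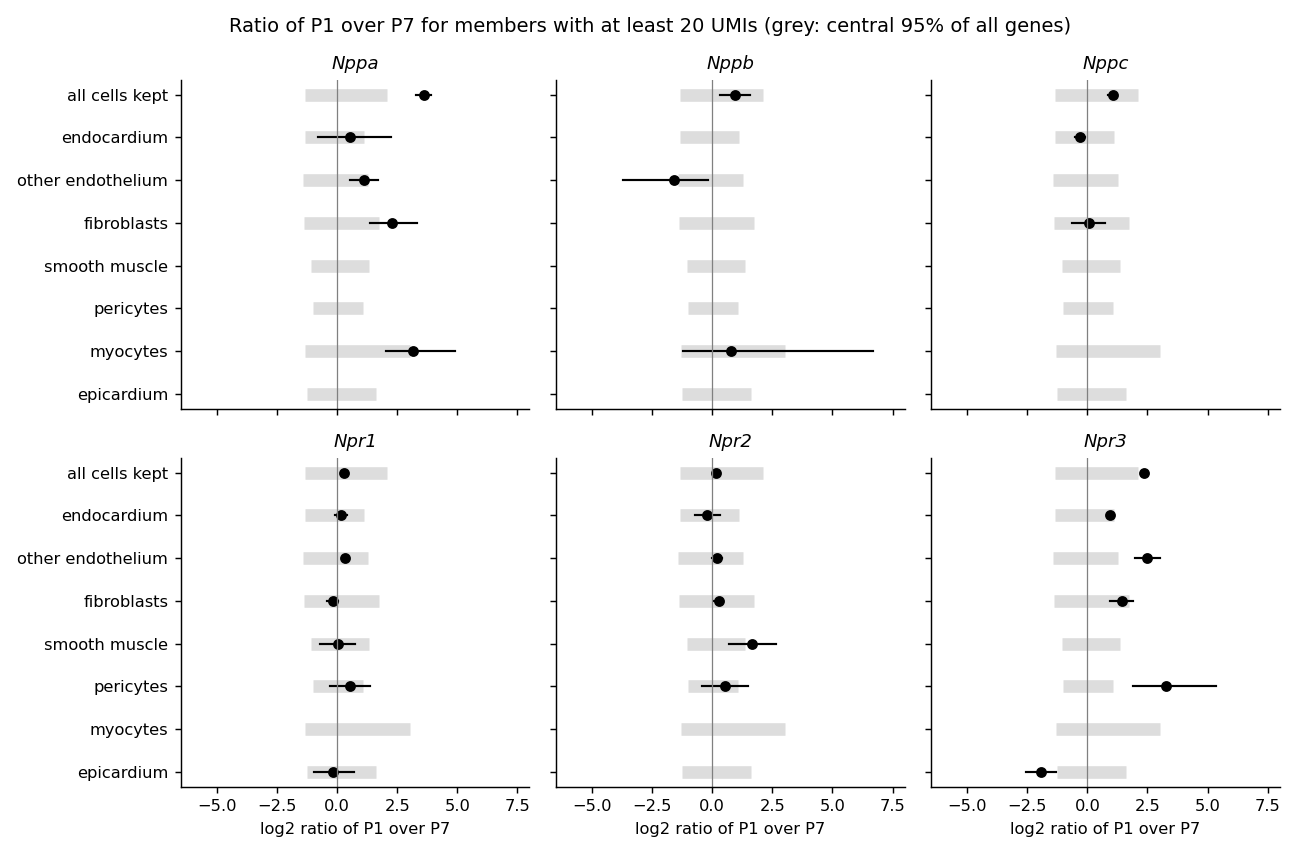
Log2 ratio of P1 over P7 of the 6 genes in all kept cells and in 7 classes, for genes with at least 20 UMIs over both libraries, with exact 95% intervals; grey bars span the central 95% of all genes in the class. Npr1 lay within the grey bar in every class shown, while Npr3 ran from -1.93 in epicardium to 3.25 in pericytes.

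Read against all genes, the age ratios over all kept cells put Nppa (3.60), Npr3 (2.36) and Nppc (1.05) more than 2-fold higher at P1, where 8.88% of all genes were, and none of the 6 more than 2-fold higher at P7, where 4.07% were. Nppc was at 0.37 without its highest cell in each library. In endocardium 5 of the 6 had at least 20 UMIs, and none passed 2-fold in either direction, where 2.99% of all genes were higher at P1 and 4.68% at P7. In other endothelium 5 of the 6 had enough UMIs. Nppa (1.11) and Npr3 (2.48) were more than 2-fold higher at P1 and Nppb (-1.59) at P7, where the shares of all genes were 3.72% and 4.65%. In fibroblasts 5 had enough UMIs, and Nppa (2.27) and Npr3 (1.42) were more than 2-fold higher at P1, where 6.17% of all genes were, and none at P7, where 4.39% were. Nppa had 2.02 and 0.411 CPM in fibroblasts, beside 1.93 and 0.267 CPM in leukocytes. Nppb in other endothelium rests on 4 and 24 UMIs. For Nppa and Nppb in these classes, free RNA and transcription outside myocytes were not told apart. In thinned fibroblasts the Nppa ratio was -0.54 (-6.58 to 2.38), where few UMIs remained.

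The genes known to act with the system, 35 in all, were also measured. They comprise hormone processing and clearance, soluble guanylate cyclases, cyclic GMP phosphodiesterases, effectors and transcription factors of the hormone genes. Over all kept cells 34 had at least 20 UMIs, and 4 were more than 2-fold higher at P1 (11.8%, beside 8.88% of all genes) and 1 at P7 (2.94%, beside 4.07%). In endocardium 3 of 26 were higher at P1 (11.5%, beside 2.99%) and 2 at P7 (7.69%, beside 4.68%). In other endothelium 3 of 27 were higher at P1 (11.1%, beside 3.72%) and 1 at P7 (3.70%, beside 4.65%). In fibroblasts 6 of 30 were higher at P1 (20.0%, beside 6.17%) and 3 at P7 (10.0%, beside 4.39%). The median log2 ratios of the list in these 4 sets were 0.02, 0.10, 0.06 and 0.12, beside 0.00, -0.08, -0.09 and 0.03 for all genes. Shares past 2-fold at P1 were above those of all genes in these 4 sets. At P7 they were above in endocardium and fibroblasts and below in all kept cells and other endothelium. All these shares rest on few genes, and the medians stood within 0.2 of those of all genes.

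Among processing enzymes, Corin, the protease that cuts the Nppa product into its active form, was highest in smooth muscle, with 102 CPM at P1 and 50.8 at P7, and had 16.0 CPM in P1 myocytes. In fibroblasts it had 1.59 and 0.118 CPM, from 26 and 4 UMIs. Mme, the protease neprilysin that degrades the hormones, was highest in fibroblasts, with 20.1 and 22.6 CPM. Dpp4, another peptidase, was highest in epicardium (131 and 253 CPM), and in fibroblasts it had 5.69 CPM at P1 and 35.4 at P7, with a log2 ratio of -2.63 (-2.96 to -2.33). Ostn, a peptide that competes for the clearance receptor, was almost undetected, with at most 0.469 CPM in a class.

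Several genes that make, read and break down cyclic GMP were highest in the mural cells, where Npr1 was lower than in endothelium. Gucy1a1, a subunit of the nitric oxide receptor cyclase, had 816 and 1015 CPM in smooth muscle and 715 and 819 CPM in pericytes. Its partner Gucy1b1 was highest in pericytes, with 403 and 437 CPM. The protein kinase Prkg1 had 117 and 101 CPM in smooth muscle, and the phosphodiesterases Pde5a 143 and 108 CPM and Pde3a 248 and 306 CPM. In fibroblasts Gucy1a1 had 57.5 and 136 CPM, a log2 ratio of -1.24 (-1.34 to -1.14), and Gucy1b1 55.3 and 159 CPM, a ratio of -1.52 (-1.63 to -1.42). Both subunits were thus higher at P7 in fibroblasts, where Npr1 had -0.19 (-0.43 to 0.03). Others were highest elsewhere, as Pde3b and Vasp were in leukocytes at P1. Pde2a, which is switched on by cyclic GMP, was highest in other endothelium, with 12.1 and 14.6 CPM.

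In endocardium Prkg1 had 15.5 and 4.87 CPM, a log2 ratio of 1.62 (0.81 to 2.64), and its substrate Mrvi1 5.82 and 0.375 CPM, from 29 and 1 UMIs. Phospholamban (Pln), which restrains the calcium pump of muscle, had 166 CPM in smooth muscle at P1 and 506 at P7, a ratio of -1.60 (-1.80 to -1.41), and -1.40 (-1.61 to -1.21) in other endothelium. Myocytes had 3296 CPM of Pln at P1 and 5129 at P7. In other endothelium the myocyte genes Tnnt2 and Actc1 were also higher at P7, with 70.5 and 66.9 CPM at P1 against 114 and 119 CPM, and their part in the Pln value was not tested.

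Of the transcription factors, Nkx2-5 was the gene most like Nppa over the 15 points (r = 0.975), followed by Irx4 (0.964) and Txlnb (0.963), all highest in P1 myocytes. The 18 P7 myocytes were too few for a point. P1 myocytes had 811 CPM of Nppa and the next class 4.04, so r rests largely on that 1 point. Nkx2-5 had 214 CPM in P1 myocytes and at most 1.49 CPM in any other P1 class. In the 18 myocytes at P7 it had 234 CPM, a log2 ratio of -0.18 (-0.92 to 0.77), beside 3.14 (2.05 to 4.91) for Nppa in the same class. The Nppa ratio does not compare like cells. At P1 the 5 Myl7-rich cells held 381 of the 608 Nppa UMIs, whereas all 18 P7 myocytes were Myl2-rich. Myl2-rich cells had 426 CPM of Nppa at P1 and 83.5 at P7, the latter from 5 UMIs in 1 cell. Over all kept cells Nkx2-5 had 3.96 and 0.688 CPM, a log2 ratio of 2.52 (2.13 to 2.94). Tbx5, the factor of the atria and the left ventricle, had 5.81 and 1.46 CPM, a ratio of 1.99 (1.71 to 2.29). Both values come from totals in which the share of myocytes differed, but myocytes held only 16 of the 343 Tbx5 UMIs at P1. Within classes with at least 20 UMIs, the Tbx5 ratio was 2.13 (1.59 to 2.72) in fibroblasts and 2.51 (1.44 to 3.91) in pericytes. In epicardium it was -0.80 (-2.09 to 0.61). The part of myocytes in the Tbx5 total was not tested. The GATA letters were found before Nppa and Nppb, and both Gata4 and Gata6 were on the list. Gata4 was highest in fibroblasts at P1 (96.1 CPM) and had 52.0 CPM in P1 myocytes. Gata6 was highest in epicardium at P1 (402 CPM) and had 256 CPM in P1 myocytes. Hand2 was highest in endocardium at both ages, with 157 and 141 CPM.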

How the data were processed

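The authors sequenced single heart cells on the 10x 3′ platform, 1 library at P1 and 1 at P7. Reads were aligned by the authors with Cell Ranger 3.1.0 to mm10 (GRCm38), and UMI counts per gene and barcode were deposited without normalisation. The labels give no replicate number.

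The counts were read in python 3.11.15. A cell met a gate with at least 2 UMIs of Cdh5, Pdgfra, Myh11 or Kcnj8, Ptprc or Upk3b, or with at least 5 Tnnt2 UMIs that made up at least 0.1% of its UMIs. Cdh5 cells with at least 1 UMI of Cytl1 or Tmem108 were endocardium. Myh11 and Kcnj8 cells were divided by the larger count, and cells of several lineages were left out. Doublets were limited by these exclusive gates and by the 8000 gene maximum, and no doublet caller was run. Counts were summed per class and library and scaled to CPM, with exact Poisson intervals. Log2 ratios had 0.5 counts added to each sum and exact conditional binomial intervals, and shares of cells Clopper-Pearson intervals. The limit given for a count of 0 is the level of 3 counts in that class, for counting error only. Ratios are given where at least 20 UMIs were summed, and past 2-fold means a log2 ratio of at least 1 in size. Thinning to 2000 UMIs left out 574 P1 and 727 P7 cells, and 1 UMI is then worth 500 CPM in a cell.

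The named genes are the 6 members, the gate and check markers, the list of 35 genes (those with the 3 largest ratios in a class and those set beside a member), and the 3 genes other than members and gate genes with the highest Pearson r to each member with at least 100 UMIs, of log2(CPM + 1) over classes of at least 20 cells. Nppb had fewer. The members and lists were chosen with earlier results of these data known. The pairs of genes compared within endocardial cells were chosen after the values were seen. Alternatives varied the mitochondrial limit, the gates, depth, scaling, lung-like cells, doublets, counts added and the minimum of summed UMIs. Positions and coding sequences are from GENCODE M21 and promoters from RefSeq, both on GRCm38. No amino acid sequence was used here, and 1 coding sequence is not reported here.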

Additional observations from a re-analysis of the deposited data

Results flagged for a closer look

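The log2 ratio of P1 over P7 of Npr3 had opposite signs in different classes. It was 0.93 in endocardium, 2.48 in other endothelium, 1.42 in fibroblasts and 3.25 in pericytes, each set against -1.93 in epicardium. Without lung-like cells the ratios in other endothelium, fibroblasts, pericytes and epicardium were smaller in size and kept their signs. The lung gene Hoxa5 had 144 CPM in epicardium at P1 and 26.8 at P7. With 1 library per age the differences between classes were not tested.

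Barcodes left out by the cell filters also carried the genes. At P1 the barcodes over the mitochondrial limit had 555 CPM of Nppa, of which 767 of 789 UMIs lay in a single barcode with 22.6% mitochondrial UMIs, 605 Myl2 UMIs and 20 Myl7 UMIs, and 3.52 CPM of Nppb. At P7 the barcodes under 200 genes had 19.0 CPM of Nppa, from 4 UMIs. The P7 barcodes over the mitochondrial limit had 9.40 CPM of Nppa, 7.83 of Nppb, 29.8 of Npr2 and 23.5 of Npr3, each above its level in the kept cells.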

How the results depend on the processing

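No paired analysis was possible because the labels give no replicate numbers and each age had 1 library. Values are log2 ratios unless counts are named, and 2 alternatives, leaving out the cell with the most UMIs of a gene and requiring both Cytl1 and Tmem108, were chosen after seeing the data. Among 591 alternative values, 3 results whose main interval left out 0 changed sign: Nppc in endocardium (0.56 with gates at 1 UMI), Nppa in fibroblasts (-0.54 thinned) and Npr2 in smooth muscle (-0.92 thinned). The cause was not tested in any case.

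P1 over P7 in all kept cells was 4.51 for Nppa with no mitochondrial limit and 3.00 without its highest cell. Nppc was 0.84 thinned, 0.75 as mean of per-cell CPM, 1.27 without lung-like cells, 0.41 without the 6% of cells with the most UMIs and 0.37 without its highest cell. Npr1 was 0.01 thinned and 0.14 as mean of per-cell CPM, and Npr3 2.64 thinned. In endocardium Npr3 was 1.14 with gates not exclusive, 1.17 thinned and 0.18 with both genes required. Nppc there was -0.74 thinned, -0.68 as mean of per-cell CPM, -1.29 without the deepest 6% of cells, -1.17 without its highest cell and -0.04 with both genes required. Npr1 in other endothelium was 0.08 and Npr2 in fibroblasts 0.46 thinned. Nppa in myocytes was 5.02 thinned, 1.92 as mean of per-cell CPM and 5.71 without its highest cell, when no P7 UMI was left.

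Endocardium over other endothelium at P1 was, for Nppc, 4.74 thinned, 7.72 without lung-like cells, 4.87 without the deepest 6%, 5.27 without its highest cell and 7.96 with both genes required. For Npr3 it was 5.37 as mean of per-cell CPM, 6.35 without lung-like cells and 6.48 with both genes required. Thinned, Nppa was 0.83 and Npr2 0.34, and Npr1 was -0.56 with both genes required. At P7 Nppc was 7.53 with gates not exclusive, Npr1 -0.34 thinned and Npr3 8.78 with both genes required.

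With at least 50 in place of 20 summed UMIs, genes past 2-fold higher at P1 and P7 numbered 185 and 288 in place of 337 and 527 in endocardium and 291 and 369 in place of 485 and 607 in other endothelium, and those higher at P1 in fibroblasts 543 in place of 848. Npr3 in epicardium was -2.73 with gates at 1 UMI and -1.03 without lung-like cells. Nppb rests on 49 and 42 UMIs in all, and values in P7 myocytes on 18 cells.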
